A study of Mus musculus with 2 samples.

Results

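The genes described here are 8 thyroid hormone genes out of 55536 annotated mouse genes in the gene tables: Ttr, Slco1c1, Dio2, Crym, Thra, Thrb, Klf9 and Hr. They were found by gene symbol and gene identifier and were chosen by their place in thyroid hormone transport, activation and response, with the measured values of the same libraries known, so their values are a description and none is tested. Total RNA of hippocampus was sequenced from male mice of the F1 hybrid B6CASTF1/J, a cross of C57BL/6J with CAST/EiJ, at 36 days of age. The single group has 2 libraries, labelled biological replicates 1 and 2, each made from 300 ng of RNA, with no treatment and no second genotype. The tissue label names a layer of the hippocampus without saying which, and both samples carry 1 donor identifier; they were taken as 2 animals from their replicate numbers. With 1 library per animal, an animal's biology, its dissection and its library cannot be told apart.

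Thyroid hormone reaches the brain mostly as thyroxine, crosses the blood-brain barrier and the choroid plexus through membrane transporters, and is converted inside astrocytes and tanycytes to triiodothyronine, the form that binds the nuclear receptors. The receptors sit on DNA as partners of the retinoid X receptors, hold genes down with corepressors when the hormone is absent, and recruit coactivators when it is bound. In the hippocampus and the rest of the developing brain this pathway is known for its part in neuronal maturation and myelination.

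Depth was close in both libraries, with 28665109 and 29633722 expected counts on mouse genes in replicates 1 and 2. All 7 markers of the hippocampal fields passed 1 TPM (a transcript's share of all transcripts in the library, corrected for its length) in both libraries, and so did 5 of 6 markers of the neocortex. The neocortex markers summed to 76.9 and 67.5 TPM, and all 6 were higher in replicate 1 by scaled counts. In TPM, Foxp2 ran the other way, at 0.59 and 0.82. Genes were compared between libraries as the ratio of scaled expected counts with 0.5 added, and a gene was called apart when it lay at least 1.5-fold from equality. Of the 18270 genes that averaged at least 10 expected counts, 7.25% were apart, 3.74% being higher in replicate 2 and 3.5% higher in replicate 1. Among the 8 thyroid hormone genes 1 was apart, Ttr, and since that contrast was known when the genes were chosen nothing is read from the count. Intervals given below are exact 95% Clopper-Pearson intervals, which cover counting error only.

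All 8 genes passed 1 TPM in both libraries, as did 57.8% of protein-coding genes. Thra was by far the highest, at 393 TPM in replicate 1 and 389 in replicate 2, which placed it 87th and 83rd among protein-coding genes. Crym, with 113 and 96.2 TPM, and Klf9, with 62.0 and 72.1 TPM, followed without overlap. Slco1c1, Dio2 and Thrb lay close together: the range of Slco1c1, 22.7 to 22.8 TPM, fell inside that of Dio2, 18.7 to 22.9 TPM, and the range of Thrb, 16.4 to 19.6 TPM, overlapped that of Dio2 but not that of Slco1c1. Ttr aside, Hr was the lowest at 5.36 and 3.82 TPM. Ttr has no single place in this order, because its 2 values span the range of every other gene but Thra.

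**Figure D1:**
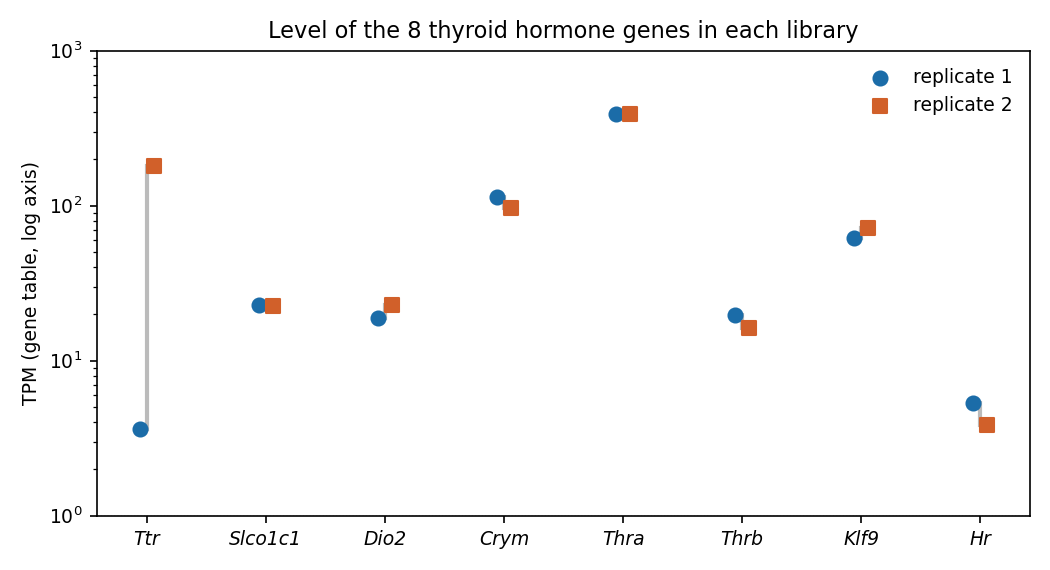
TPM of each thyroid hormone gene from the gene table on a log axis, with replicate 1 as circles and replicate 2 as squares, joined by a grey line. Ttr runs from 3.62 to 179 TPM, while each other gene has its 2 points close together.

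Ttr encodes transthyretin, the thyroxine carrier of cerebrospinal fluid and, in rodents, of plasma; in the brain it is made by the choroid plexus epithelium. The gene (ENSMUSG00000061808.4, mm10 chromosome 18, 20665280 to 20674321, plus strand) had 81 expected counts and 3.62 TPM in replicate 1 and 4202 expected counts and 179 TPM in replicate 2. The libraries therefore stand far apart: Ttr was 10851st among 22028 protein-coding genes in replicate 1 and 305th in replicate 2. The scaled ratio was 50.1-fold (interval 40.5 to 63.6), and the mean of 91.4 ± 124 TPM (SD, n = 2) describes neither library. The second transcript table, made from the reads by another estimator, put Ttr at 5.47 and 300.1 TPM. Ttr has 1 annotated transcript, and its expected count had a posterior standard deviation of 0 in both libraries, so no reads were divided with another gene. Its nearest neighbour on the opposite strand, Gm16090, starts 19 bases away and had 1 expected count in each library.

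Markers of the choroid plexus moved with Ttr. Of 14 listed markers 13 had a mean count of at least 10, all 13 were higher in replicate 2, and 11 were so by at least 1.5-fold, against 3.74% of all genes tested, with a median log2 ratio of 2.68 against -0.0010 over all genes tested. The list summed to 60.5 and 95.4 TPM in replicates 1 and 2, of which Enpp2, an enzyme that oligodendrocytes also make, held 52.4 and 75.4. Several markers were low in both libraries without being at 0. Kcnj13, a potassium channel of the epithelium, had 2 and 34 counts, and Slc4a5, a bicarbonate transporter, 2 and 47. Folr1, a folate receptor, had 4 and 32, and Clic6, a chloride channel protein, 13 and 115. The tested markers short of 1.5-fold were Kl, with 418 and 560 counts and a ratio of 1.30, and Prlr, with 150 and 224 counts and a ratio of 1.45. Liver is another known site of transthyretin synthesis. All 6 hepatocyte markers stayed under 1 TPM in both libraries, their sum was 0.96 and 0.64 TPM, and Ahsg was at 0 in both. The part of choroid plexus tissue in the Ttr difference was not tested, and in bulk RNA more cells of a type cannot be told apart from more RNA per cell.

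Among the 12511 other protein-coding genes with a mean count of at least 50 and a mean of at least 1 TPM, the 5 whose log2 ratio was nearest to that of Ttr over these 2 libraries were Gm14288, Map3k6, Gm4767, Slc13a4 and Gm3435. This minimum leaves out choroid plexus markers with fewer counts and larger ratios, such as Slc4a5 at a log2 ratio of 4.21 and Kcnj13 at 3.75, against 5.65 for Ttr. Of the 12541 genes of any class with a mean count of at least 100, 5 (0.0399%) were as far apart as Ttr or farther, Ttr included. Gm14288 had 0 and 357 expected counts, but its counts were divided with other genes, and the second table gave it 10.96 and 12.96 TPM. Map3k6, a stress-activated kinase, was 2.61-fold higher in replicate 2, from 51 and 138 counts. Slc13a4, a sulphate transporter, was 2.44-fold higher in replicate 2, from 67 and 169 counts. The remaining Gm4767 and Gm3435 were 2.55-fold and 2.27-fold higher in replicate 2.

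**Figure D2:**
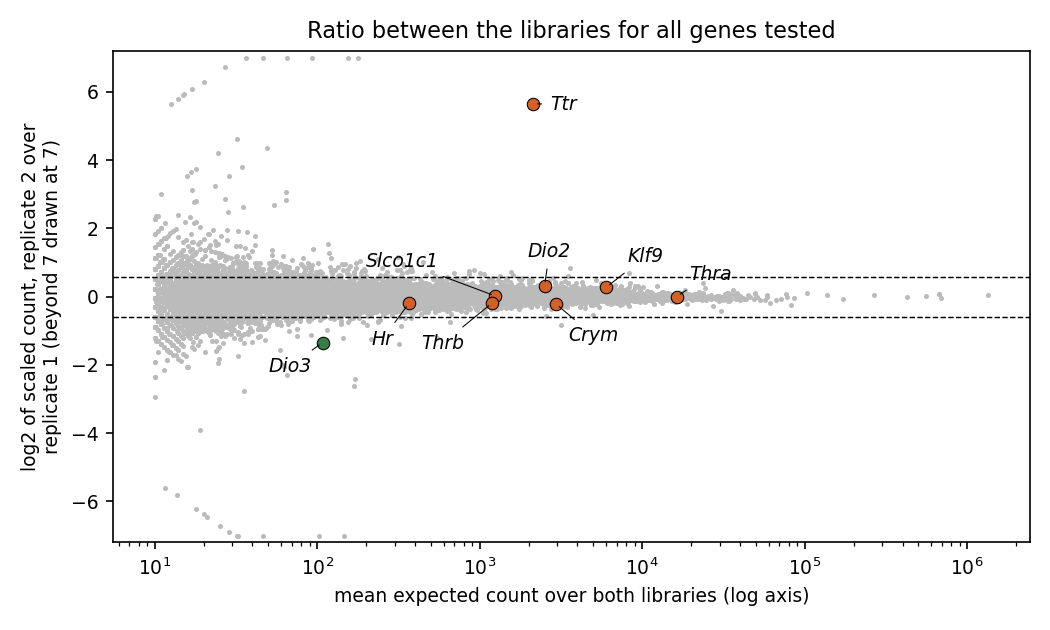
Log2 ratio of scaled counts, replicate 2 over replicate 1, against the mean expected count (log axis) for all genes tested; orange points are the thyroid hormone genes, the green point is Dio3, and dashed lines mark 1.5-fold. Ttr lies at 5.65, far above other genes of its count, the other 7 orange points lie between the dashed lines, and Dio3 lies below them at -1.35.

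The other carriers give no such contrast. Alb and Serpina7, which encode the plasma carriers albumin and thyroxine-binding globulin, were at 0 counts in both libraries. Rbp4, the retinol carrier that travels bound to transthyretin, had 4.66 and 4.09 TPM and was not apart.

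Slco1c1 encodes OATP1C1, the transporter that takes thyroxine across the mouse blood-brain barrier. The gene (ENSMUSG00000030235.17, chromosome 6, 141524368 to 141570177, plus strand) had 1223 and 1274 expected counts and 22.8 and 22.7 TPM, a mean of 22.8 ± 0.099 TPM (SD, n = 2). The ratio was 1.01 (interval 0.936 to 1.096). The list of endothelial markers summed to 129 and 136 TPM, with 4 markers higher in each library. Their ratios of replicate 2 over replicate 1 ran from 0.749 for Tek to 1.38 for Slc2a1.

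Of 13 membrane transporter genes, 9 passed 1 TPM in both libraries and 1 of the 10 tested was apart, against 7.25% of all genes tested. Slc3a2, the heavy chain of amino acid transporters that accept thyroid hormone, was highest at 58.8 and 59.1 TPM. Its partner light chain Slc7a5 had 23.7 and 27.8 TPM, and the organic anion transporter Slco3a1 had 23.9 and 25.4 TPM. The transporter that was apart, Slco4a1, had only 26 and 45 counts, a ratio of 1.67 (interval 1.02 to 2.84). Slc17a4 and Slc10a1 were at 0 in both libraries and Slco1a5 was under 1 TPM in both.

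Most of the Slco1c1 signal was assigned to a transcript that is not annotated to make the full transporter. Slco1c1-202, classed as a target of nonsense-mediated decay, took 57.3% of the gene in replicate 1 and 53.1% in replicate 2, and 60.3% and 59.7% in the second table. Slco1c1-201, with an open reading frame of 715 codons, took 16.3% and 16.4%, and 10.1% and 9.51% in the second table. Slco1c1-206, which skips an exon of 147 bases (141542092 to 141542238), took 15.2% and 23.2%, and 10.3% and 21.4% in the second table. Slco1c1-205, also of the decay class, took 8.00% and 5.46%, and 16.9% and 8.21% in the second table. The leading transcript is therefore the same in both libraries and both tables. The authors' intervals of TPM for Slco1c1-206, 1.47 to 5.15 and 2.74 to 7.09, and for Slco1c1-205, 0.454 to 3.17 and 0.000148 to 2.12, overlapped between the libraries. The coding sequences of Slco1c1-201 and Slco1c1-202 part at 1 splice acceptor. Their models also differ elsewhere, with lengths of 3178 and 2680 bases. The sequences are shown because the junction at this acceptor alone sets Slco1c1-202 apart from every other annotated transcript of the gene. Both start with the last 24 bases of the preceding exon (chr6:141555164-141555187). The capitals in Slco1c1-201 mark 41 bases (chr6:141559741-141559781) that Slco1c1-202 leaves out, and both continue with 19 bases (chr6:141559782-141559800), at the end of which Slco1c1-202 meets its stop codon after 469 codons.
Slco1c1-201: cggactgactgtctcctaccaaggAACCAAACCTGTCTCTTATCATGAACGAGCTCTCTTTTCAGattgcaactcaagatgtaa
Slco1c1-202: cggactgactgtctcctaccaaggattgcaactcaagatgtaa

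The 41 bases come from the transcript sequences of GENCODE M21, on the plus strand of mm10. Slco1c1-202 has 1 junction and 0 bases that no other transcript has, so its share rests on reads over that junction and on how each estimator divided the rest, and the deposited tables do not show the reads.

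Dio2 encodes the type 2 deiodinase, which turns thyroxine into triiodothyronine and in brain is made chiefly by astrocytes and tanycytes. The gene (ENSMUSG00000007682.6, chromosome 12, 90724552 to 90738438, minus strand) had 2202 and 2819 expected counts and 18.7 and 22.9 TPM, a mean of 20.8 ± 2.93 TPM (SD, n = 2). It was 1.24-fold higher in replicate 2 (interval 1.18 to 1.32). That is less than the 1.5-fold limit, though 5.97% of the 12541 genes with a mean count of at least 100 were as far apart or farther. Of 8 astrocyte markers 6 were higher in replicate 2, the direction of Dio2, and 2 in replicate 1. Their median log2 ratio was 0.038 against 0.32 for Dio2, they summed to 1603 and 1600 TPM, and the farthest 2, Gfap and Aqp4, had ratios of 1.100 and 1.096. Their part in the Dio2 ratio was not tested. The tanycyte markers Rax and Gpr50 were at 0 counts in both libraries. Gm26512, on the opposite strand, overlaps 238 bases at the start of Dio2 and had 59 and 68 expected counts.

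The enzyme that breaks thyroid hormone down went the other way. Dio3, which encodes the inactivating type 3 deiodinase and is itself induced by triiodothyronine, had 154 and 62 expected counts and 4.07 and 1.68 TPM in replicates 1 and 2. It was 2.54-fold higher in replicate 1 (interval 1.89 to 3.49), where 3.5% of genes tested were at least 1.5-fold higher, and the second table gave 5.84 and 2.99 TPM. Thus Dio2 was higher and Dio3 lower in the same library, with 1 library on each side and no replicate check. Dio1, the deiodinase of liver and kidney, had 0 and 1 counts.

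Listed with the deiodinases were genes that insert selenocysteine into them or remove ubiquitin from Dio2 protein. Of the 9 genes in the list 8 passed 1 TPM in both libraries, and of the 8 tested none was at least 1.5-fold higher in replicate 2 and only Dio3 was so in replicate 1, against 3.74% and 3.5% of all genes tested. Usp33 and Usp20, which encode deubiquitinases of the enzyme, had 52.6 and 52.2 TPM and 32.9 and 31.4 TPM. Sephs2, which makes the selenium donor, had 15.3 and 14.7 TPM. Sepsecs, which makes selenocysteine on its transfer RNA, had 424 and 348 counts, a ratio of 0.798 (interval 0.691 to 0.922), about as far from equality as Dio2.

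Crym encodes mu-crystallin, a ketimine reductase that binds triiodothyronine in the cytosol. The gene (ENSMUSG00000030905.5, chromosome 7, 120186380 to 120202111, minus strand) had 3126 and 2773 expected counts and 113 and 96.2 TPM, a mean of 105 ± 12.05 TPM (SD, n = 2). It was 1.16-fold higher in replicate 1 (interval 1.101 to 1.221), and 14.2% of genes with a mean count of at least 100 were as far apart or farther. Its coding transcript Crym-201 took 95.5% and 95.9% of the gene, and 95.6% and 96.0% in the second table. Of the 7 hippocampal field markers 4 were higher in replicate 2 and 3 in replicate 1. Of the 7, 0 were apart, against 7.25% of all genes tested and 0.901% of those with a mean count of at least 100. Wfs1 and Fibcd1, markers of field CA1, had ratios of replicate 2 over replicate 1 of 0.843 and 0.852, and Prox1 and C1ql2, markers of dentate granule cells, had 1.41 and 1.23. The other 3 markers, Pcp4, Cpne4 and Rgs14, had 1.102, 1.06 and 0.987. The part of the field makeup in the Crym ratio was not tested.

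Among the 5 genes of cytosolic binding and conjugation, all passed 1 TPM in both libraries. Pkm, whose product also binds thyroid hormone in the cytosol, was highest at 535 and 508 TPM, and Aldh1a1 had 22.5 and 23.2 TPM. Nqo2 had 3.31 and 3.08 TPM. Of the 5, 1 was apart, against 7.25% of all genes tested: Sult1a1, a sulphotransferase that inactivates the hormone, with 69.9 and 114 expected counts, a ratio of 1.58 (interval 1.17 to 2.16), and shared reads with another gene.

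Thra encodes the alpha receptor, the main thyroid hormone receptor of brain. The gene (ENSMUSG00000058756.13, chromosome 11, 98740638 to 98769006, plus strand) had 16076 and 16560 expected counts and 393 and 389 TPM, a mean of 391 ± 2.53 TPM (SD, n = 2). The ratio was 1.00 (interval 0.980 to 1.02), and 98.4% of genes with a mean count of at least 100 were as far apart or farther. Thra was 20.1 and 23.8 times the level of Thrb in TPM, and 16.8 and 17.3 times in the second table.

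Splicing at the 3′ end divides Thra into a receptor that binds hormone, alpha 1, and forms that do not, alpha 2 and alpha 3, which share the DNA-binding part but end differently. The sequences are shown because the form is set by the bases after the last shared coding exon. Each line opens with the last 24 coding bases shared by all 3 (chr11:98764382-98764405), and capitals mark the form's own end: the whole 123 bases of alpha 1 to its stop codon (chr11:98764406-98764528), the first 150 bases of alpha 2 (chr11:98768157-98768306) and the first 33 bases of alpha 3 (chr11:98768274-98768306).
alpha 1: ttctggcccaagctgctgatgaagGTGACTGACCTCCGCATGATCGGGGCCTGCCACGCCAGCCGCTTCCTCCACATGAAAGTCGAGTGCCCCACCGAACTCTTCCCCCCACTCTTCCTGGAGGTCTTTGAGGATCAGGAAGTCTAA
alpha 2: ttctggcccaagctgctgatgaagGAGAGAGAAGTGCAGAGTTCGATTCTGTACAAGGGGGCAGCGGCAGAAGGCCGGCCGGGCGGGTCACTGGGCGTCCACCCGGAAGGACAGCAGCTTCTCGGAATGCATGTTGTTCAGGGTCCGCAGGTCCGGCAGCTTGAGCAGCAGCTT
alpha 3: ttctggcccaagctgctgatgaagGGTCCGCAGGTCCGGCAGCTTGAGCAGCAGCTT

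The shared coding part is 1110 bases long. Alpha 1 (Thra-202) reads through into the following 123 coding bases and has 410 codons. Alpha 2 (Thra-201) splices to an exon further on, with 369 coding bases of its own, and has 492 codons. Alpha 3 (Thra-203) enters the same exon 117 bases later than alpha 2, so its capitals are found inside those of alpha 2. The alpha 3 model of the annotation holds coding bases only, 1240 in all, and ends before a stop codon.

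The alpha 2 form was the main Thra transcript in both libraries. It had 249 and 241 TPM, 63.3% and 61.9% of the gene, and 64.9% and 60.7% in the second table. Alpha 1, the form that binds hormone, had 39.8 and 38.3 TPM, 10.1% and 9.82% of the gene, and 10.4% and 9.65% in the second table. Alpha 2 was therefore 6.25 and 6.29 times alpha 1, and 6.21 and 6.29 times in the second table. This ratio varied little between libraries and between estimators. Each of these forms can be told apart by position, since 706 bases lie in alpha 1 and 720 in alpha 2 that no other transcript has. The 706 bases of alpha 1 lie within an intron of alpha 2, and alpha 1 has 0 junctions of its own. Unspliced Thra RNA in total RNA would also cover these bases, and its part in the alpha 1 level was not tested.

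Alpha 3 was less certain. It had 85.5 and 95.0 TPM, 21.8% and 24.4% of the gene, but 12.4% and 14.8% in the second table, and its ratio to alpha 1 was 2.15 and 2.48 in the first and 1.19 and 1.53 in the second. It has 0 bases and 1 junction of its own. Its short model also raises the level per base: its expected counts, 2007 and 2337, were closer to those of alpha 1, 1758 and 1772, than the TPM values were. A short coding model with 535 bases, Thra-208, took 0.17% and 0.15% in the first table and 3.61% and 7.68% in the second.

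The end of Thra overlaps Nr1d1, which encodes the clock repressor REV-ERB alpha, on the opposite strand. The genes overlap over 1075 bases, and Nr1d1 had 1820 and 1690 expected counts and 34.8 and 31.0 TPM. Exons of Nr1d1 cover 263 bases of alpha 2, 10.7% of its length, all 130 bases of the last alpha 3 exon, and 0 bases of alpha 1. Whether counting used strand is not given in the sources used here. The expected counts of Thra and Nr1d1 had a posterior standard deviation of 0 in both libraries, so those counts were not divided between the genes. The part of the overlap in the alpha 2 and alpha 3 shares was not tested. In TPM, Nr1d1 was lower than alpha 2 and alpha 3 in both libraries.

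**Figure D3:**
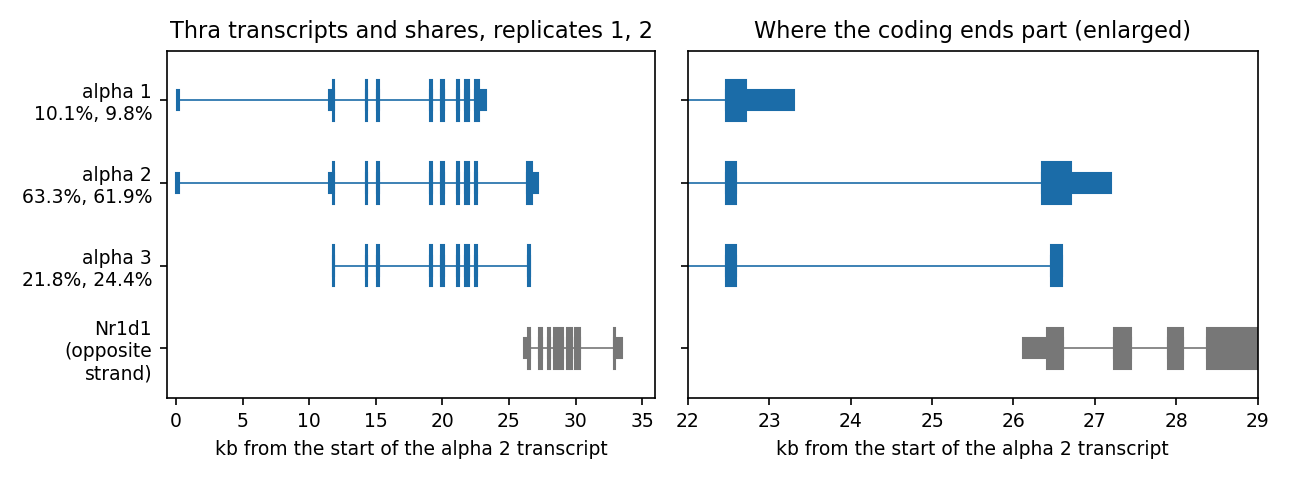
Exons of 3 Thra transcripts and of Nr1d1 against distance in kb from the start of the alpha 2 transcript, with coding parts as tall boxes, other exon parts as low boxes and the share of each transcript in replicates 1 and 2 beside its name; the right panel enlarges the 3′ end. Alpha 1 ends upstream of Nr1d1, and the last alpha 3 exon lies within an exon of Nr1d1.

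Thrb encodes the beta receptor. The gene (ENSMUSG00000021779.17, chromosome 14, 17660261 to 18038090, plus strand) had 1254 and 1133 expected counts and 19.6 and 16.4 TPM, a mean of 17.97 ± 2.28 TPM (SD, n = 2). It was 1.14-fold higher in replicate 1 (interval 1.05 to 1.23), and 18.1% of genes with a mean count of at least 100 were as far apart or farther. In the second table its TPM was 38.5 and 39.4, in the opposite order, while its scaled counts there kept the order, at a log2 ratio of -0.145. Gm48321, Gm48320 and Gm24140, annotated within its span, were at 0 counts in both libraries.

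Beta 1 and beta 2 start from different promoters and share the exons for DNA and hormone binding. Their different beginnings are shown because they are what distinguishes the forms, which GENCODE only numbers. Capitals mark the last 60 of 283 coding bases particular to beta 1 (chr14:17963262-17963321) and the last 60 of 325 particular to beta 2 (chr14:17982142-17982201), and both run on into the first 24 shared bases (chr14:18002528-18002551).
beta 1: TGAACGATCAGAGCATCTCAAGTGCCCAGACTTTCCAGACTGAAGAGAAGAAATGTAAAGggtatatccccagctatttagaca
beta 2: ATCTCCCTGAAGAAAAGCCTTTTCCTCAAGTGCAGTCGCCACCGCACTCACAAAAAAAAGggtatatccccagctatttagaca

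Beta 1 has 461 codons in both of its transcripts, and beta 2 has 475. Beta 1, the sum of Thrb-201 and Thrb-203, had 7.44 and 8.12 TPM, 38.0% and 49.6% of the gene, and 34.7% and 36.1% in the second table. Beta 2 (Thrb-202), known best from pituitary, hypothalamus and retina, had 6.55 and 4.80 TPM, 33.4% and 29.35% of the gene, and 24.7% and 18.5% in the second table. Beta 1 was above beta 2 in both libraries and both tables, but the counts run the other way. They were 821 and 632 expected counts for Thrb-202, 216 and 296 for Thrb-201 and 173 and 180 for Thrb-203. Thrb-202 is 6200 bases long, and of its 2204 bases in no other transcript 673 are its first exon (17981529 to 17982201) and 1531 lie past the 3′ end of Thrb-201 (18036560 to 18038090). Which of these parts the reads fell on is not in the deposited tables, so the beta 2 share is uncertain as a level of the beta 2 promoter's product.

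Short models took the rest of Thrb. The noncoding Thrb-204, a retained intron of 521 bases, took 6.32% and 6.33%, and 5.44% and 4.40% in the second table. Thrb-206, of 426 bases, took 16.01% and 10.5% from 21.1 and 12.1 expected counts, and 3.89% and 5.45% in the second table. Thrb-205, of 375 bases, took 3.11% and 4.26% in the first table and 31.2% and 35.5% in the second, the widest disagreement between the tables for any coding transcript of Thrb. Thrb-207 took 3.18% in replicate 1 and was at 0 in replicate 2 and in the second table. Set against alpha 1, the beta forms were lower: alpha 1 was 2.85 and 2.96 times beta 1 and beta 2 together, and 2.95 and 3.06 times in the second table.

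**Figure D4:**
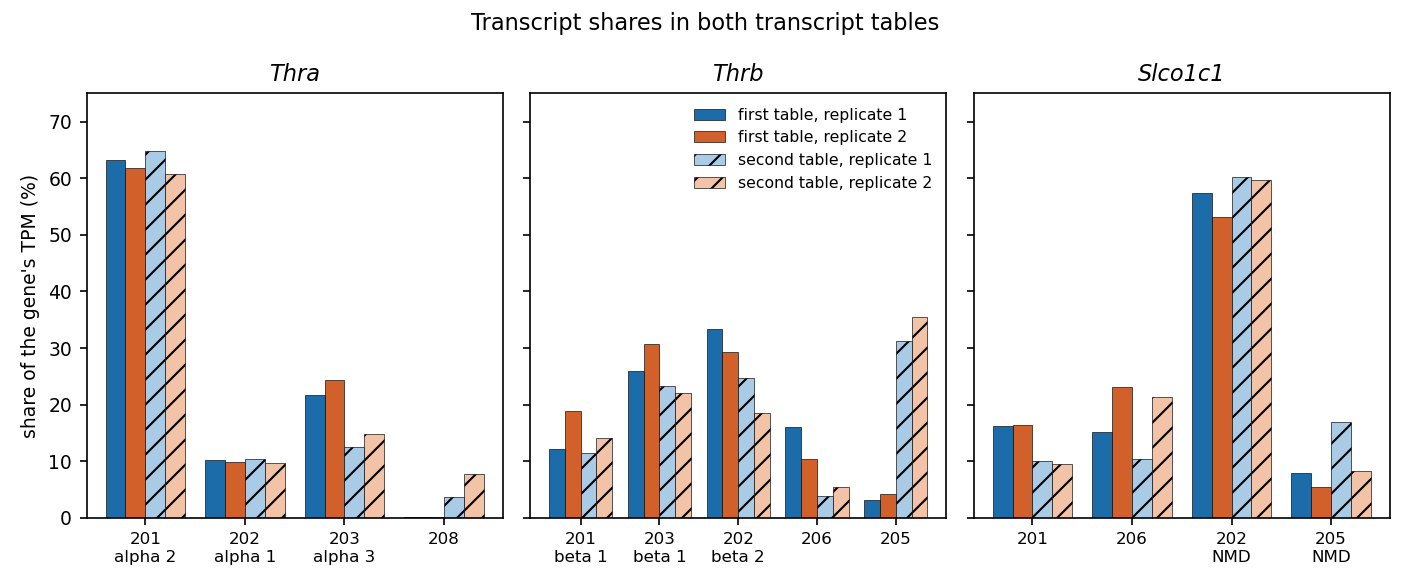
Share of the gene's TPM, in percent, for transcripts of Thra, Thrb and Slco1c1, with solid bars for the first transcript table and hatched bars for the second, blue for replicate 1 and orange for replicate 2. Alpha 2 and Slco1c1-202 lead in all 4 bars, at 60.7% to 64.9% and 53.1% to 60.3%, while Thrb-205 runs from 3.11% to 35.5%.

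The receptors' partners were present. Rxrb was the highest retinoid X receptor at 33.7 and 30.8 TPM, Rxra had 11.13 and 11.03 and Rxrg 3.14 and 2.64 TPM. Of 7 corepressor genes, Hr included, all passed 1 TPM in both libraries, against 57.8% of protein-coding genes. Of the 7, 0 were apart, against 7.25% of genes tested and 0.901% of those with a mean count of at least 100. Ncor1, a scaffold that binds unliganded receptors, had 122 and 127 TPM. Its complex partners Tbl1xr1 and Hdac3 had 64.5 and 61.7 TPM and 36.1 and 32.6 TPM. The 8 coactivators also all passed 1 TPM with 0 apart, led by the p160 coactivator Ncoa1 at 56.1 and 56.0 TPM, the acetyltransferase Crebbp at 36.1 and 38.1, Ncoa2 at 32.5 and 29.8 and the acetyltransferase Ep300 at 30.0 and 30.1 TPM.

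Klf9 and Hr are direct targets of the receptors in brain. Klf9 encodes a zinc finger transcription factor that glucocorticoids also induce. The gene (ENSMUSG00000033863.2, chromosome 19, 23141226 to 23168134, plus strand) had 5365 and 6653 expected counts and 62.0 and 72.1 TPM, a mean of 67.1 ± 7.14 TPM (SD, n = 2). It was 1.21-fold higher in replicate 2 (interval 1.16 to 1.25), and 8.82% of genes with a mean count of at least 100 were as far apart or farther. Klf9-201, its coding transcript, took 94.7% and 96.8% of the gene, and 84.6% and 91.5% in the second table, where the noncoding Klf9-202 took the remaining 15.4% and 8.45%. Mir1192, annotated within Klf9, had 1 and 0 counts.

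Hr encodes Hairless, a corepressor of the receptor that is induced by the hormone. The gene (ENSMUSG00000022096.14, chromosome 14, 70552212 to 70573548, plus strand) had 387 and 347 expected counts and 5.36 and 3.82 TPM, a mean of 4.59 ± 1.09 TPM (SD, n = 2). It was 1.15-fold higher in replicate 1 by counts, with an interval, 0.990 to 1.33, that includes 1, yet 1.40-fold higher by TPM. Short entries weigh differently in the 2 scales. Hr-202, a processed transcript of 321 bases, took 31.8% and 22.8% of the gene from 7.76 and 4.17 expected counts, and Hr-204, of 337 bases, took 4.60% and 0 from 1.21 and 0 counts. The gene length, an average over transcripts in the deposited table, was 3612 bases in replicate 1 and 4313 in replicate 2. Both short entries were at 0 in the second table, which gave Hr 5.30 and 4.68 TPM. The coding Hr-201 had 3.30 and 2.78 TPM, 61.7% and 72.9% of the gene, and 78.1% and 76.4% in the second table. Hr-203, also coding, took 1.96% and 4.27%, and 21.9% and 23.6% in the second table. The values of Klf9 were thus higher in replicate 2 and those of Hr higher in replicate 1, in both tables, the latter within counting error.

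Of 25 genes listed as responding to thyroid hormone, Klf9, Hr and Dio3 included, 23 passed 1 TPM in both libraries. Of the 25 tested, 8 were higher in replicate 2 and 17 in replicate 1. The list does not say which way the hormone moves each gene, so this count is not read as a response. Of the same genes 1 was apart (Dio3) against 7.25% of all genes tested. Their median log2 ratio was -0.04 against -0.0010 over all genes tested. Among the highest were Mbp, which encodes myelin basic protein, at 723 and 729 TPM, and Nrgn, whose product binds calmodulin in dendritic spines, at 636 and 596 TPM. All 5 oligodendrocyte markers, none of them in the list, were lower in replicate 2 and summed to 478 and 419 TPM, and their part in the list's values was not tested. Thrsp, a lipogenic gene, was the farthest toward replicate 2, with 310 and 463 counts, a ratio of 1.45 (interval 1.25 to 1.68). Aldh1a3 and Shh stayed under 1 TPM in both libraries.

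Over all 9 pathway lists there were 73 genes beside the 8, of which 60 passed 1 TPM in both libraries and 63 were tested. Of these, 2 were at least 1.5-fold higher in replicate 2 (Slco4a1 and Sult1a1) and 1 in replicate 1 (Dio3), against 3.74% and 3.5% of all genes tested. The median log2 ratio of the 63 was -0.017.

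**Figure D5:**
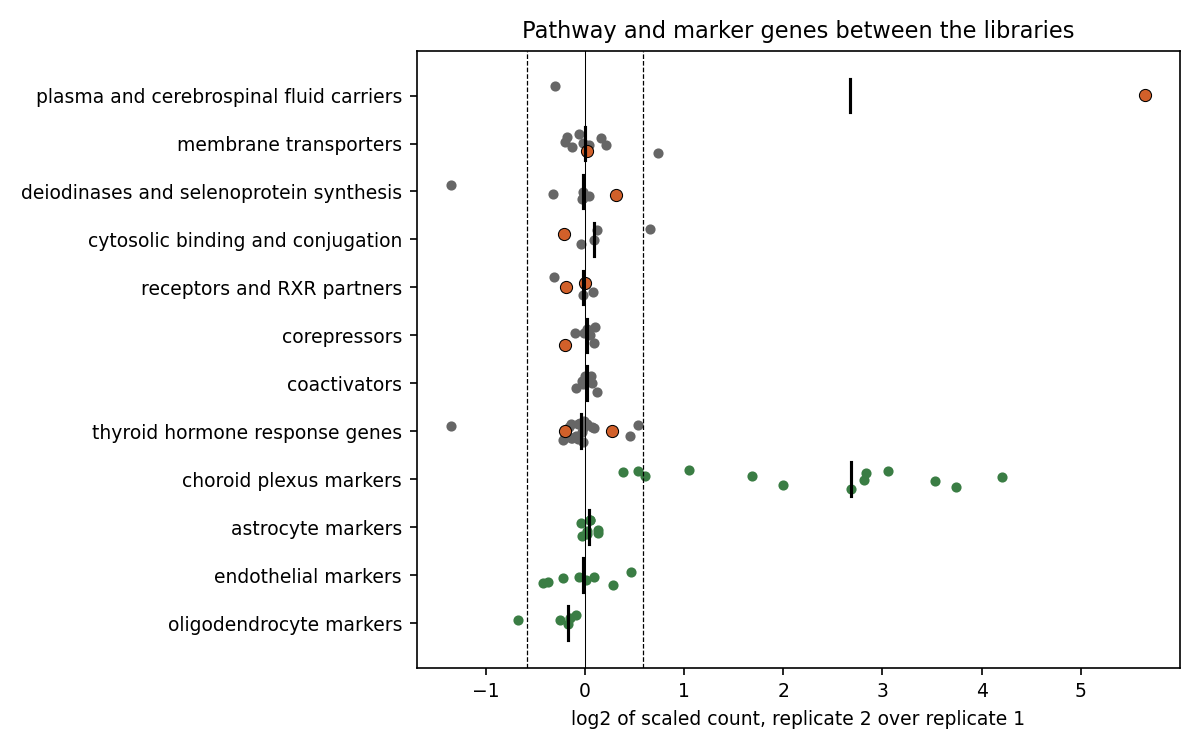
Log2 ratio of scaled counts, replicate 2 over replicate 1, for the genes tested in 8 pathway lists and 4 marker lists; orange points are the thyroid hormone genes, green points are markers, bars are medians and dashed lines mark 1.5-fold. Ttr stands at 5.65 and the choroid plexus markers centre on 2.68, while medians of the lists other than carriers and choroid plexus lie between the dashed lines.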

How the data were processed

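Values are deposited by the authors for 2 libraries. The gene tables hold expected counts and TPM, the first transcript tables add what percent of its gene each transcript makes up, and both give a posterior standard deviation and TPM interval bounds, used as scores deposited by the authors; columns are those of RSEM, per the file headers. The second transcript tables hold estimated counts and TPM with the columns of kallisto, per the file headers. The deposited description of the files names mm10 and GENCODE M21; tool versions and strandedness of counting were not given in the sources used here. Entries naming no mouse gene, nearly all spike-ins, held 0.421% and 0.408% of counts and were left out.

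Expected counts were rounded and scaled by TMM (edgeR 4.0.16, R 4.3.3), with 0.5 added for ratios. The ratios and intervals were tried on simulated counts with counting error only. The scaling was taken as known there and was not itself tested. TPM is relative to all entries, and protein-coding genes held 44.5% and 43.5% of it. The second table's TPM was 1.66 and 1.70 times the gene table's at the median of 7954 coding genes with at least 10 TPM, so levels are not compared across tables. No significance test was run. The members and lists were chosen with earlier results of these data known. Named from each list are, with exceptions not reported here, its 4 highest genes, genes apart, and genes under 1 TPM in both libraries, plus transcripts with a mean share of at least 10%; a few other genes, such as Nqo2 and Rxrg, were named after their values were seen. Counting intervals ignore amplification, since reads carry no molecular identifiers.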

Additional observations from a re-analysis of the deposited data

How the results depend on the processing

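The share of genes at least 1.5-fold apart, 7.25%, was 28.9% with no minimum count and 0.901% with a mean count of at least 100; it was 7.24% with DESeq2 size factors, 7.23% with spike-in totals, 8.99% from TPM and 6.63% in the second table. Ttr was the only 1 of the 8 apart under each of those scalings and tables and at 2-fold. At 5 TPM in place of 1, 6 of 8 passed in both libraries, Ttr and Hr each falling short in 1. The sign of the log2 ratio was kept in 5 of 5 alternatives for 6 genes and in 4 of 5 for Thra and Slco1c1, whose ratios lie near 0. With protein-coding transcripts alone as the denominator, the mean share of Thra-201 was 65.3% in place of 62.6% and that of Thra-202 10.4% in place of 9.98%; leaving out 1 library gave 61.9% to 63.3% and 9.82% to 10.1%. No paired analysis was possible because there is 1 group. Spike-in totals moved the median log2 ratio of all genes to 0.037.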

Other observations

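Genes that make thyroid hormone in the thyroid gland were listed as a set that brain tissue should lack. Of 7 such genes 4 stayed under 1 TPM in both libraries, among them the thyroglobulin gene Tg, with 2 and 4 counts, the thyrotropin receptor gene Tshr, with 6 and 8 counts, and the oxidase gene Duox2, with 1 and 3 counts. The other 3 passed 1 TPM in both. Slc26a4, which encodes the anion exchanger pendrin, had 4.44 and 4.69 TPM from 272 and 301 counts. Slc5a5, the sodium-iodide symporter gene, had 3.46 and 3.21 TPM from 201 and 196 counts. Iyd, whose enzyme recovers iodide from iodotyrosines, had 1.68 and 3.02 TPM from 42 and 63 counts, a ratio of 1.45 (interval 0.972 to 2.21). None of the 3 was apart between the libraries.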
